A study of Mus musculus with 12 samples.

Results

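The contractile machinery of the mammary myoepithelium was followed through 9 genes, Acta2, Actg2, Myh11, Myl9, Mylk, Tpm2, Cnn1, Tagln and Oxtr, across the cell classes and libraries of a dropseq experiment on paired mammary glands and mammary tumors. The genes were chosen by name, and all 9 were among the 21743 genes of the deposited count table. In the glands, basal-like cells held most of the transcripts of these genes, whereas almost no basal-like cells were found in the tumors. In MT2, the tumor of the second mouse, the remaining Acta2 and Tagln transcripts came mostly from a small fibroblast-like class. In MT1, the tumor of the first, 51.5% of the Acta2 and 64.4% of the Tagln transcripts came from 62 cells of that class that form an unnamed sub-cluster with mural and matrix markers. The class carried few Myh11 transcripts in both tumors.

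All animals were Brca1-deficient (MMTV-Cre; Brca1flox/flox) on a mixed C57BL/6 and 129/Sv background, and no age was given in the labels. MG1 (mammary glands of the fourth pair) and MT1 (the tumor) came from mouse X2265, and MG2 and MT2 from mouse X738. The MMTV promoter drives Cre mainly in mammary epithelium, so that other cell types need not carry the deletion, which was not checked per cell here. Glands as well as tumors carried the Brca1 allele, and there was no wild-type group. Dissociated cells were depleted of hematopoietic and endothelial cells before droplets were made, which can set the shares of stromal classes. MG1 was read in 2 libraries, MG2 in 2, MT1 in 5 and MT2 in 3. Libraries of 1 tissue of 1 mouse are technical repeats of that animal, so p-values below measure the spread between libraries and not between mice.

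The myoepithelial (basal) cells of the mammary duct and alveolus are epithelial cells that contract like smooth muscle. Oxytocin binds its receptor on these cells at milk let-down, calcium rises, myosin light chain kinase phosphorylates the regulatory light chain, and smooth muscle myosin then pulls on actin filaments. The same proteins are made by smooth muscle cells and pericytes around vessels and, in part, by activated fibroblasts, which is why several cell classes were read side by side.

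In these assemblies Acta2 encodes smooth muscle alpha-actin (chr19:34241090-34255590, minus strand, GRCm38, as are all positions here) and Actg2 encodes smooth muscle gamma-actin (chr6:83512905-83536265, minus). Myh11, the smooth muscle myosin heavy chain, lies at chr16:14194535-14291372 (minus), and Myl9, a regulatory light chain, at chr2:156775420-156781658 (plus). Mylk, myosin light chain kinase, spans chr16:34745210-35002420 (plus). The thin filament proteins are beta-tropomyosin (Tpm2, chr4:43514711-43523765, minus), calponin 1 (Cnn1, chr9:22099216-22109630, plus) and transgelin (Tagln, chr9:45929619-45936058, minus). Oxtr, the oxytocin receptor, lies at chr6:112473683-112489943 (minus). Tagln shares 108 bases with Pcsk7 on the other strand and lies over the antisense gene Gm48529, and Mylk lies over 3 antisense genes; how strand was treated in counting is not given in the sources used here, so the counts of both genes are uncertain to that extent.

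Smooth muscle genes are widely known to be driven by serum response factor, which binds the CArG box, a sequence that begins with CC, ends with GG and has 6 bases of A or T between. RefSeq promoter windows (GRCm38.p6, 250 bases before to 50 after the annotated start) were at hand for 6 of the 9 genes (Acta2, Mylk, Cnn1, Tpm2, Oxtr and Myl9), and those of Tagln, Myh11 and Actg2 were not used here. Both strands were searched, the motif being its own reverse complement. A CArG box with all 6 inner bases A or T was in 1.63% of 32851 promoters, and a looser form (CCNNNNNNGG with at least 5 of the 6 inner bases A or T) was in 9.98%. The windows of Acta2, Myl9 and Tpm2 are shown because these are the genes with a window whose level was higher in the fibroblast-like cells of MT1 than of MG1 (given further on). Matches to the looser form are in capitals. The Acta2 window (chr19:34255324-34255623, minus strand) held 2 looser matches, which begin 84 and 34 bases before the start, and none with all 6 inner bases A or T. The Myl9 window (chr2:156775214-156775513, plus strand) held 2, 161 and 99 bases before the start, of which 1 had all 6. The Tpm2 window (chr4:43523505-43523804, minus strand) held none, nor did those of Mylk, Cnn1 and Oxtr; the Mylk window (chr16:34784700-34784999) lies inside the gene span given above and not at its 5′ end. A match describes letters in these windows only.
Acta2: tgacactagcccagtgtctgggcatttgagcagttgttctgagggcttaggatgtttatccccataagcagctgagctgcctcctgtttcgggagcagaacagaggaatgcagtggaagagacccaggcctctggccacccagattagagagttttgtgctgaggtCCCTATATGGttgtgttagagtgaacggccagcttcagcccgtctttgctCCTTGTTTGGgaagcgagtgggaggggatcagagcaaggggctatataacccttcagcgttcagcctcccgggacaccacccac
Myl9: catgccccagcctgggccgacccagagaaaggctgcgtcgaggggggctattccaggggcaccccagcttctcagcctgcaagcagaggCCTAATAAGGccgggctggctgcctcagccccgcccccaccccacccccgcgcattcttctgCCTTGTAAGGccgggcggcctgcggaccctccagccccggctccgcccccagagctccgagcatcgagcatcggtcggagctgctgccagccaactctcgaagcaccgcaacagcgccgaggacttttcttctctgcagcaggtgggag
Tpm2: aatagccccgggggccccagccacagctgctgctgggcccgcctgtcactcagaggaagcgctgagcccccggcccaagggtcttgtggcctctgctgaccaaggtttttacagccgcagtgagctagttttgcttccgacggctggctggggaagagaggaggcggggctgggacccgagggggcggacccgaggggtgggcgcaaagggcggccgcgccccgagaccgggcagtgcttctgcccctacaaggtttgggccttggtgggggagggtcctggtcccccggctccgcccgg

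The table held UMI counts of 21157 cells, 818 of MG1, 2335 of MG2, 7690 of MT1 and 10314 of MT2. Total UMIs ranged from 693333 in MG1 replicate 2, which had 105 cells, to 14841414 in MT2 replicate 1. Median UMIs per cell ranged from 1784 to 4842 over the libraries, and any pair of libraries shared between 0 and 7 cell barcodes. Cells were clustered without the 9 genes, and classes were named from marker lists that hold none of them. Levels are given as CPM, that is UMIs scaled to the total of the summed cells. A UMI marks 1 captured 3′ end, so that no division by gene length was made.

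The basal-like class comprised 102 cells of MG1, 213 of MG2, 3 of MT1 and 0 of MT2. It was named from 7 of 8 basal markers, and Cxcl14, Krt17, Krt5 and Krt14 were among its leading genes. Basal-like cells formed 12.5% and 12.4% of the MG1 libraries, 9.55% and 8.68% of the MG2 libraries and at most 0.136% of an MT1 library. None was found in the MT2 libraries, which allows a share of up to 0.139% in the library with the fewest cells (exact 95% binomial limit, counting error only). The glands also held 1201 luminal secretory-like, 1198 luminal hormone-sensing-like, 262 fibroblast-like and 107 endothelial-like cells. The tumors held 424 fibroblast-like cells (135 in MT1, 289 in MT2), and 4 clusters of mostly MT1 cells and 2 of mostly MT2 cells, in which 90% or more of the cells came from tumors, are called tumor clusters. A total of 63 gland cells (14 of MG1, 49 of MG2) fell in MT1 tumor clusters.

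No cluster was called mural. Of 1113 stromal cells, 913 had no UMI of 9 mural markers (the list without Pdgfrb, which fibroblasts share), 164 had 1 such marker, 27 had 2, 6 had 3, 2 had 4 and 1 had 5. The nearest candidate was a stromal sub-cluster of 63 cells, 62 of them from MT1, which was led by C1qtnf3, Mfap5, Cilp, Aspn and Postn. In it 8 of 10 mural markers and 5 of 8 fibroblast markers passed the marker rule. Among the mural markers, Cspg4 had a UMI in 16 of its cells (25.4%), Rgs5 in 4 and Kcnj8 in none. By its marker count it would be mural, and it was left unnamed because its leading genes were matrix genes, and it was kept within the fibroblast-like class; values are given with and without it.

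The order of the genes in basal-like gland cells was led by Myh11 and Tpm2. Over the 315 cells Myh11 stood at 2060 CPM, Tpm2 at 1610, Acta2 at 852 and Mylk at 634. Tagln (362), Cnn1 (263) and Myl9 (167) followed, and Actg2 (25.2) and Oxtr (12.6) were low. Other gland classes held 8 of the genes at lower levels in the same libraries, and Oxtr was seen in few cells of any class. Acta2 was 22.7-fold higher in basal-like than in luminal secretory-like cells (37.5 CPM) and 47.3-fold higher than in hormone-sensing-like cells (18 CPM). For Myh11 these ratios were 24.1 and 40.0. Since the classes are clusters of these same cells, the folds are descriptions with no test.

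**Figure D1:**
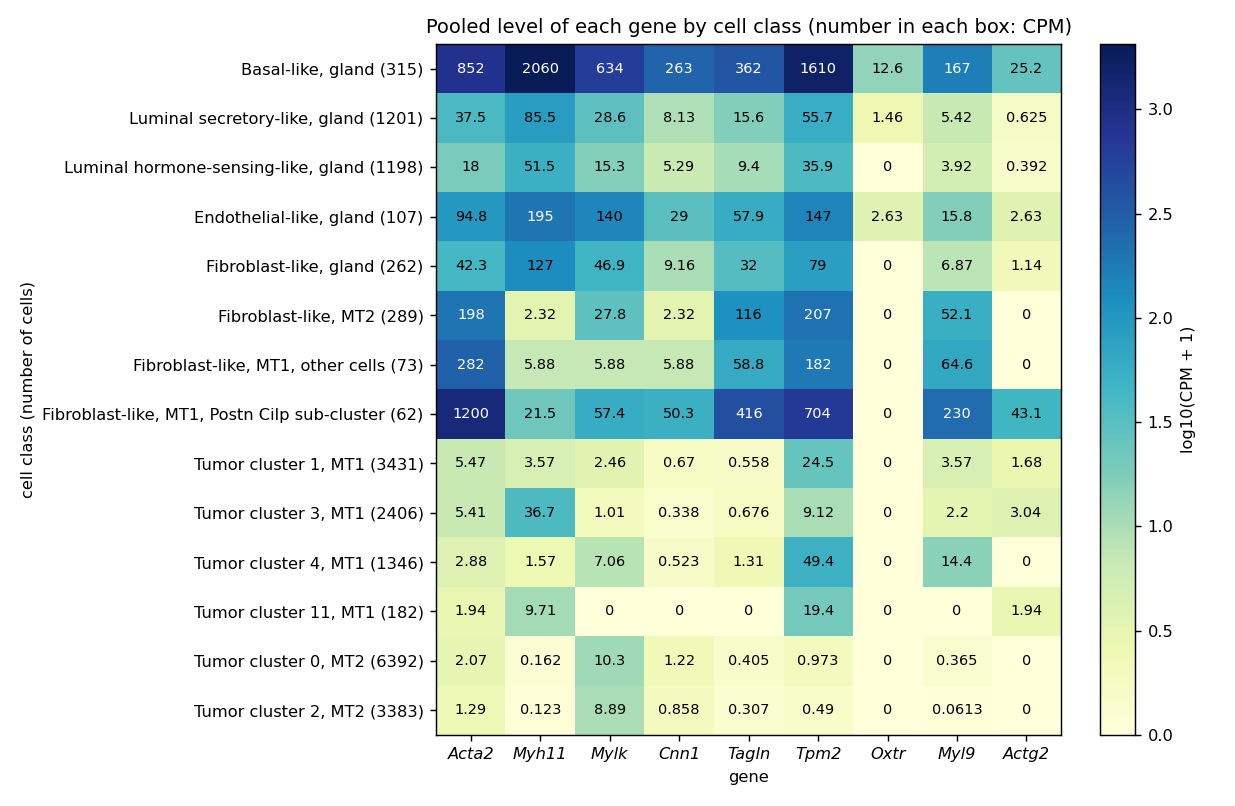
Pooled level of each gene (columns) in each cell class (rows, with the number of cells), coloured by log10(CPM + 1) and with the CPM printed in each box. Basal-like gland cells hold the highest levels of Myh11 (2060 CPM) and Tpm2 (1610 CPM), while the fibroblast-like rows of the tumors hold Acta2 and Tpm2 with little Myh11.

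In the 4 gland libraries, Acta2 in basal-like cells stood at 503.8 and 695.8 CPM in MG1 and at 942.9 and 1107 CPM in MG2. The libraries of the 2 mice did not overlap for this gene. Myh11 stood at 2469 and 1240 CPM in MG1 and at 2198 and 1716 CPM in MG2, so that the MG1 libraries enclosed both MG2 libraries. The lower of these MG1 values came from replicate 2, with 13 basal-like cells. Mylk, the kinase, stood at 869 and 574.8 CPM in MG1 and at 551.1 and 530.1 CPM in MG2. Its MG2 libraries lay just under both MG1 libraries.

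Tpm2 in basal-like cells was the steadiest of the thin filament genes, at 1801 and 1739 CPM in MG1 and 1692 and 1312 CPM in MG2. Cnn1 stood at 461.8 and 166.4 CPM in MG1 and at 223 and 153.1 CPM in MG2, and these ranges overlapped. Tagln stood at 432.4 and 499.1 CPM in MG1 and at 245.3 and 404.4 CPM in MG2, with both MG2 libraries below MG1. Myl9, the light chain on which Mylk acts, stood at 247.7 and 136.1 CPM in MG1 and at 165.7 and 102.1 CPM in MG2. Its ranges overlapped. Oxtr lay between 9.557 and 15.71 CPM in the 4 libraries, and Actg2 was at 46.18 and 0 CPM in MG1 and at 15.93 and 23.56 CPM in MG2; both rest on few UMIs.

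Between the basal-like cells of the glands, 0 of the 7 genes that passed the low-count filter were called different (edgeR quasi-likelihood test, Benjamini-Hochberg adjusted p under 0.05). The background was 1 call in 3661 genes (0.0273%), and 316 genes (8.63%) had an unadjusted p under 0.05. Acta2 was 0.68 higher in MG2 on the log2 scale (SE 0.263, adjusted p = 0.54 in edgeR) and Cnn1 was at -0.985 (SE 0.472, adjusted p = 0.612 in edgeR). The median over the 7 genes was -0.58. Without MG1 replicate 2, Acta2 was called higher (0.859) and Cnn1, Myl9 and Mylk lower (-1.437, -1.02 and -0.844), in a fit that called 277 of all genes. That fit has 1 MG1 library, which is assumed to vary like the 2 MG2 libraries, so these calls have no replicate check in MG1. With all libraries, DESeq2 called 12 of all genes. Without MG1 replicate 1, where the same holds, Cnn1 (0.154) and Myh11 (0.62) changed sign.

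The genes were also read cell by cell. Each cell was thinned to 1000 UMIs, which left out 0 cells. Of the 315 basal-like gland cells 72.7% then had a UMI of Tpm2 and 70.2% of Myh11. Acta2 was seen in 45.1%, Mylk in 38.7%, Tagln in 26.3%, Cnn1 in 15.2% and Myl9 in 11.7%. Before thinning, at a median of 2157 UMIs per cell, Tpm2 was seen in 87.6%, Myh11 in 89.8% and Acta2 in 66.3%. In thinned hormone-sensing-like gland cells, a luminal type that is not contractile, the shares were 3.01% for Tpm2, 3.84% for Myh11 and 1.5% for Acta2 (median 2805 UMIs before thinning). Actg2 was seen in 2.54% and Oxtr in 0.635% of thinned basal-like cells, and in none of the 1198 hormone-sensing-like cells after thinning (before thinning, Actg2 was seen in 0.167% of them). At least 3 of the 9 genes were seen in 49.0% of basal-like cells of MG1 and in 61.0% of MG2 after thinning, and in 80.4% and 87.8% before. In the luminal-like classes that share was at most 3.56% per gland after thinning and 5.98% before.

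The proportions of the genes were read beside their low levels in the other gland classes. In MG1 the ratio of Myh11 to Acta2 UMIs was 4.04 in basal-like, 3.5 in luminal secretory-like, 7.29 in hormone-sensing-like and 5.62 in fibroblast-like cells. The values of hormone-sensing-like and fibroblast-like cells rest on 14 and 13 Acta2 UMIs. In MG2 the ratio was 1.95, 1.95, 2.06 and 1.58 in the same order, lower than in MG1 in all 4 classes. Tagln to Acta2 was 0.819 in basal-like and 0.692 in fibroblast-like cells of MG1, and 0.311 and 0.792 in those of MG2. The fibroblast-like ratios rest on 9 Tagln and 13 Acta2 UMIs in MG1 and on 19 and 24 in MG2. The order of the classes in each gland is therefore uncertain. Mylk to Acta2 was 1.48 and 2.0 in MG1, and 0.533 and 0.625 in MG2. In the 63 gland cells of MT1 tumor clusters Myh11 to Acta2 was 0.6, on 10 Acta2 UMIs. In gland fibroblast-like cells the 111 Myh11 UMIs lay in 31 cells, with 24 in 1 cell and 14 cells with 2 or more. After thinning, 6.87% of these cells had a Myh11 UMI, beside 6.08% of luminal secretory-like cells. Without the highest 5% of doublet scores, 82 UMIs in 24 cells were left. The part of free RNA or mixed droplets in these levels was not tested. Among endothelial-like gland cells 12.1% had a Mylk UMI after thinning against 1.42% of hormone-sensing-like cells, at a pooled level of 140 CPM.

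Over the whole glands, basal-like cells made up 9.99% of the cells and carried between 63.6% (Mylk) and 75.9% (Actg2) of the UMIs of 8 genes, and 57.9% of the 19 Oxtr UMIs. Luminal secretory-like cells carried 16.4% of the Acta2 UMIs and 15.4% of the Myh11 UMIs. In MT1 the sources differed between genes. Fibroblast-like cells, 1.76% of the cells, carried 66.4% of the 324 Acta2 UMIs (exact 95% interval 60.9% to 71.5%, counting error only) and 75.6% of the 90 Tagln UMIs, but 1.45% of the 276 Myh11 UMIs. The interval takes UMIs as independent, although these 215 Acta2 UMIs lay in 53 cells with up to 19 in 1 cell. It is therefore too narrow for the sampling of cells. The Postn Cilp sub-cluster alone, 0.806% of the cells, held 51.5% of the Acta2 and 64.4% of the Tagln UMIs. Tumor clusters carried 94.2% of the Myh11, 82.9% of the Actg2, 75.3% of the Tpm2 and 68.5% of the Myl9 UMIs of MT1. In MT2, fibroblast-like cells (2.8% of the cells) carried 70.4% of the Acta2, 87.0% of the Tagln, 83.3% of the Tpm2 and 81.8% of the Myl9 UMIs. Mylk had 93.0% of its 429 MT2 UMIs in tumor clusters, Cnn1 95.7% of its 46, and Myh11 6 of its 8.

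**Figure D2:**
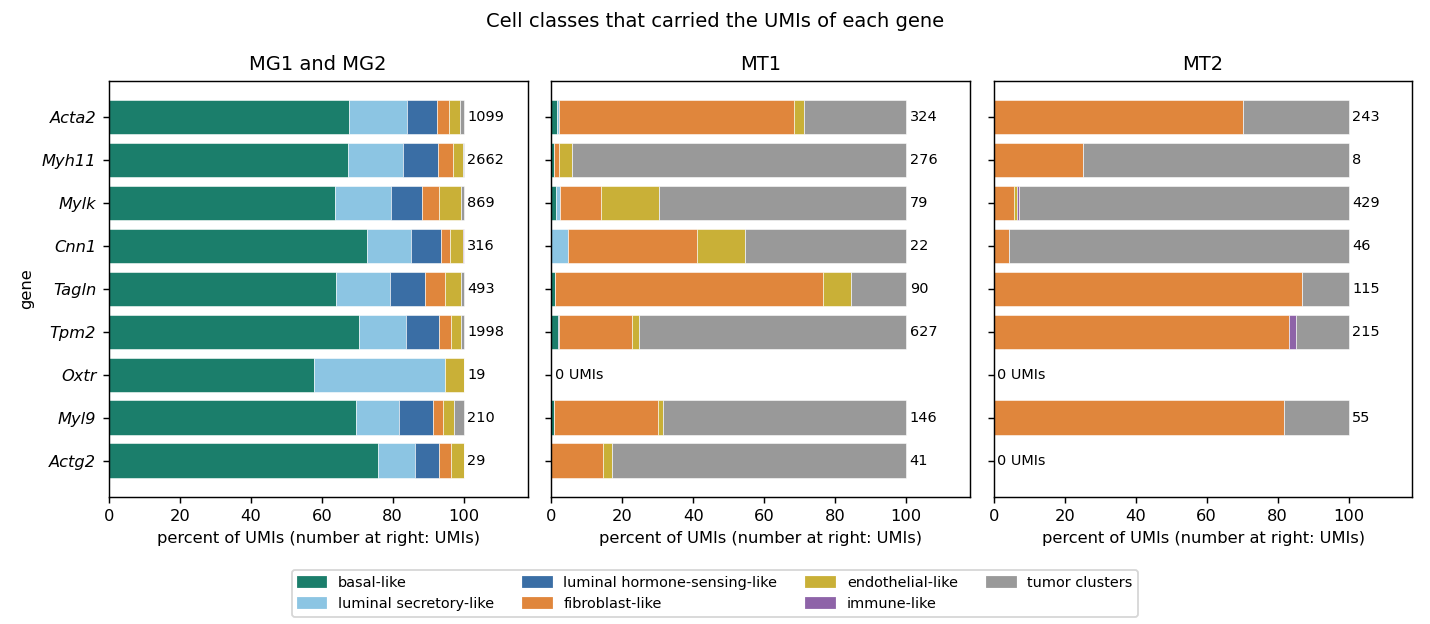
Percent of the UMIs of each gene (stacked bars) that came from each cell class, in the glands, in MT1 and in MT2. Basal-like cells fill 63.6% to 75.9% of the gland bars of 8 genes, and fibroblast-like cells fill 66.4% of the Acta2 bar of MT1 and 70.4% of that of MT2.

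To ask how the genes differed between each tumor and the gland of the same mouse, all cells of a library were summed. In such sums fewer cells of a type and less RNA per cell cannot be told apart. Acta2 stood at 57.2 and 77.88 CPM in MG1, 97.61 and 103.1 in MG2, 14.85, 32.97, 11.29, 15.41 and 14.84 in MT1, and 5.256, 6.995 and 4.842 in MT2. The 4 groups did not overlap, and MT1 replicate 2 stood apart from the other MT1 libraries. Myh11 stood at 292.5 and 124 CPM in MG1, 216.7 and 168.3 in MG2, 7.72, 14.24, 14.85, 16.91 and 9.799 in MT1, and 0.1348, 0.2826 and 0.1467 in MT2. Its glands overlapped, and every MT1 library lay above every MT2 library.

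Mylk took another order, at 97.27 and 63.46 CPM in MG1, 63.04 and 57.92 in MG2, 5.345, 6.744, 2.524, 3.57 and 4.479 in MT1, and 11.93, 7.914 and 10.27 in MT2. Here MT2 lay above MT1 in every library. Tpm2 stood at 196.5 and 180.3 CPM in MG1, 164.7 and 126.7 in MG2, 25.54, 40.09, 28.96, 33.07 and 29.68 in MT1, and 6.468, 3.674 and 4.916 in MT2. Myl9 stood at 26.18 and 17.31 CPM in MG1, 16.95 and 9.929 in MG2, 8.908, 9.741, 7.425, 6.201 and 6.159 in MT1, and 0.8759, 1.837 and 1.174 in MT2. For both genes the order was gland, MT1, MT2 with no overlap, although the highest MT1 library of Myl9 came close to the lower MG2 library.

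Cnn1 stood at 47.83 and 18.75 CPM in MG1, 19.43 and 16.31 in MG2, between 0.7425 and 1.782 in MT1, and between 0.8085 and 1.394 in MT2, so that the tumors overlapped. Tagln stood at 52.35 and 51.92 CPM in MG1, 29.6 and 38.77 in MG2, 0.5938, 14.61, 3.564, 3.946 and 1.4 in MT1, and 3.975, 2.261 and 1.761 in MT2. The MT1 range of Tagln enclosed that of MT2, and its highest library was again MT1 replicate 2, which had the largest share of fibroblast-like cells in MT1 (3.54%, others 1.4% to 1.71%). Actg2 stood at 4.847 and 0 CPM in MG1, 1.356 and 1.891 in MG2, 0, 2.997, 2.376, 2.255 and 1.4 in MT1, and 0 in all MT2 libraries. Oxtr had 3 and 1 UMIs in MG1, 9 and 6 in MG2 and none in any tumor library. Against a limit of 3 UMIs per group, its pooled level was at least 7.03-fold lower in MT1 than in MG1 and at least 24.6-fold lower in MT2 than in MG2, and Actg2 was at least 23.0-fold lower in MT2 than in MG2.

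**Figure D3:**
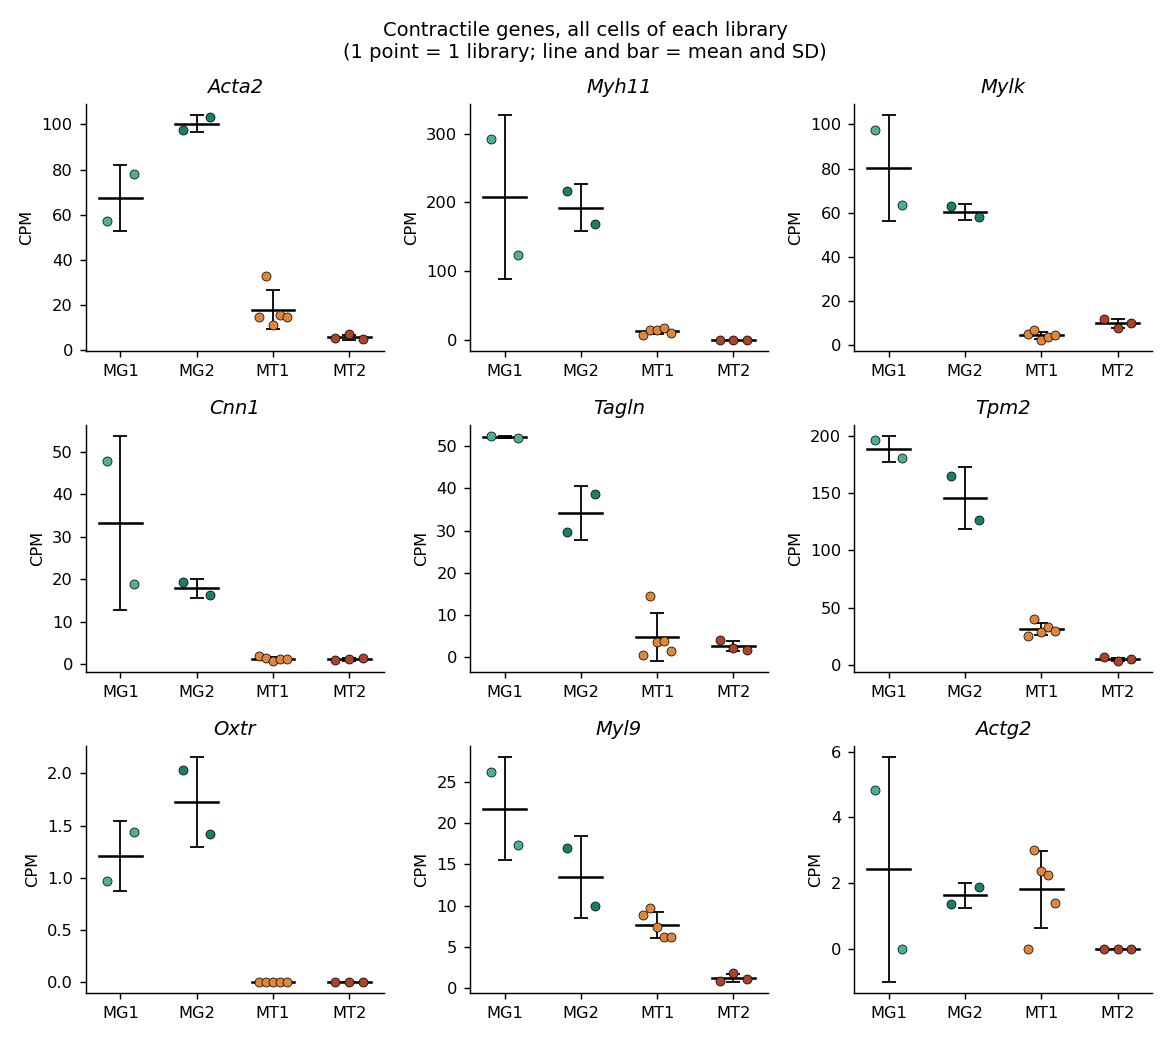
Level of each gene in all cells of each library, in CPM on a linear axis, with 1 point per library, the mean as a line and the SD as a bar, for the groups MG1, MG2, MT1 and MT2. Gland libraries lie above tumor libraries for Acta2, Myh11, Mylk, Cnn1, Tagln, Tpm2 and Myl9, and also for Oxtr, which rests on few UMIs. Oxtr is at 0 in all tumor libraries, and Actg2 overlaps between MG1 and MT1. How many of all genes separate in this way was not counted.

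In edgeR's quasi-likelihood test on these sums, 7 of the 8 genes tested were lower in MT1 than in MG1, where 28.8% of 14106 genes were lower, and 8 of 8 were lower in MT2 than in MG2, where 33.3% were. Oxtr did not pass the low-count filter. The median log2 difference of the genes was -3.03 in mouse 1 and -3.92 in mouse 2, beside 0.09 and -0.04 over all genes. Several marker lists of the gland epithelium were lower in the same sums. The 8 basal markers summed to 476 to 695 CPM in MG1, 710 to 750 in MG2, 198 to 244 in MT1 and 33.2 to 33.8 in MT2, the 7 hormone-sensing markers to 1420 to 2270, 1520 to 1640, 89.7 to 119 and 11.1 to 13.3, and the 9 general epithelial markers to 10500 to 13300, 11600, 7360 to 9400 and 629 to 864 in the same order. The 8 luminal secretory markers overlapped in mouse 1 (4160 to 8510 CPM in MG1, 5860 to 9630 in MT1) and were at 9840 to 10100 CPM in MG2 and 17.7 to 28.7 in MT2. The part of these lists in the differences was not tested. Acta2 fell by 1.90 in mouse 1 (SE 0.285, edgeR adjusted p = 2.92e-05) and by 3.97 in mouse 2 (SE 0.287, adjusted p = 3.3e-09). Myh11 changed by -4.04 in mouse 1 (SE 0.287) and by -9.70 in mouse 2 (SE 0.48). Mylk changed by -4.355 and -2.43, and Tpm2 by -2.57 and -4.70. Cnn1 changed by -5.05 and -3.865, Tagln by -3.48 and -3.495, and Myl9 by -1.66 and -3.21. Actg2 was at -0.89 in mouse 1 (SE 0.692, adjusted p = 0.274 in edgeR) and was called lower in mouse 2, where its fitted value rests on MT2 libraries at 0. Without MG1 replicate 1, Myl9 was at -1.047 in mouse 1 and no longer called, and Actg2 changed sign.

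The drop differed between the mice for 6 genes. In the test of the difference itself, 5 genes lost less in mouse 1 than in mouse 2 (background 26.5%), namely Acta2 by 2.07 on the log2 scale (SE 0.41), Myh11 by 5.66 (SE 0.644), Tpm2 by 2.12, Myl9 by 1.55 and Actg2, whose size rests on MT2 at 0. Mylk lost more in mouse 1 (-1.93, SE 0.377, background 18.2%). Cnn1 (-1.186, adjusted p = 0.1 in edgeR) and Tagln (0.013, SE 0.543) were not called. Between the tumors directly, the same 5 names were higher in MT1 (background 33.8%) and Mylk was higher in MT2 (background 32.6% lower in MT1). Without MG2 replicate 1 the difference for Myl9 was 1.109 and not called, and without MG1 replicate 2 Cnn1 was called (-1.673).

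**Figure D4:**
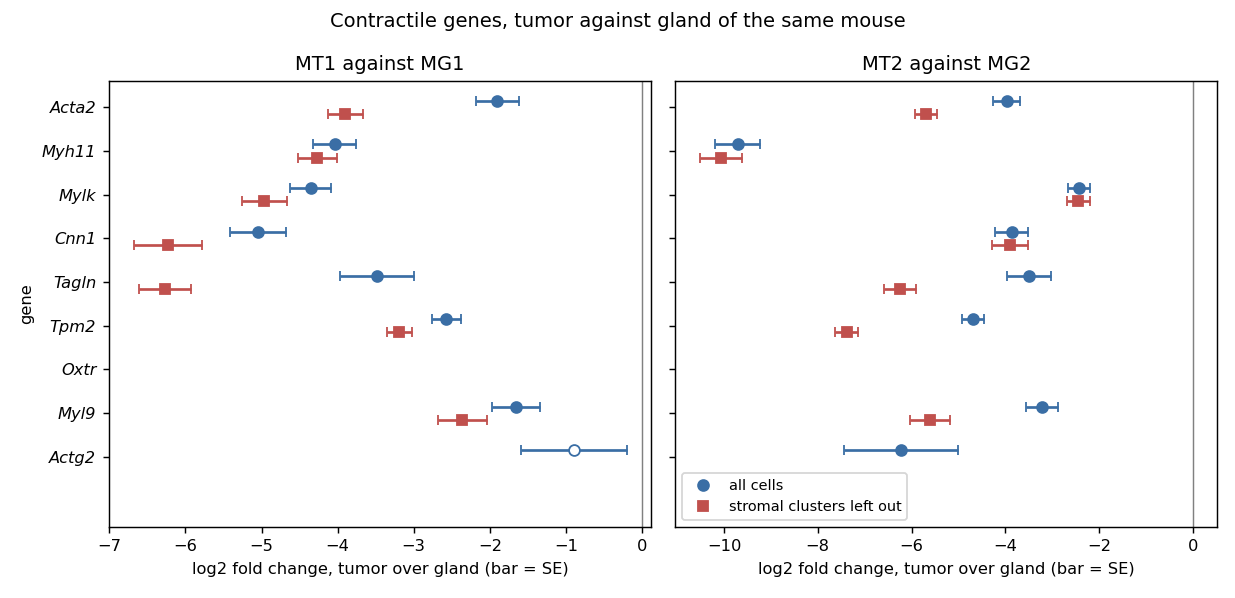
Log2 fold change of each gene in tumor against gland (bars, SE), for MT1 against MG1 and MT2 against MG2, in all cells (circles) and with stromal clusters left out (squares); an open symbol was not called. With stromal cells left out Acta2 moves from -1.90 to -3.90 in mouse 1, and Myh11 reaches -10.07 in mouse 2.

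With the fibroblast-like, endothelial-like and immune-like cells left out, 20044 epithelial and tumor cells remained, and the fall of several genes was larger. All 7 genes tested were lower in MT1 than in MG1 (background 27.1% of 13656 genes) and all 7 were lower in MT2 than in MG2 (background 34.2%), with Oxtr and Actg2 below the filter. The means over libraries after TMM scaling were 79.5 ± 14.7 CPM (SD, n = 2) for Acta2 in MG1, 4.81 ± 1.8 (n = 5) in MT1, 95.8 ± 1.75 (n = 2) in MG2 and 1.83 ± 0.341 (n = 3) in MT2. The log2 changes fitted by edgeR were -3.90 (SE 0.233) and -5.69 (SE 0.232). Tagln changed by -6.265 (SE 0.339) and -6.25 (SE 0.339), the nearest to equal in both mice. Myh11 changed by -4.265 and -10.07, Tpm2 by -3.19 and -7.39, Myl9 by -2.36 and -5.61, Cnn1 by -6.23 and -3.90, and Mylk by -4.96 and -2.44. The change again differed between the mice. Myh11 (5.801), Tpm2 (4.20), Myl9 (3.245) and Acta2 (1.80) lost less in mouse 1 (background 26.4%), and Mylk (-2.52) and Cnn1 (-2.335) lost more (background 17.1%). Between the tumors, the same 4 were higher in MT1 (background 35.3%) and Mylk was lower (-1.72, background 33.1%). The call for Cnn1 was lost without MG1 replicate 1 (-1.139).

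Only 2 mice stand behind these contrasts. With these epithelial and tumor cells in 4 sums of mouse by tissue and the mouse as a block, edgeR called 0 of 14949 genes (0.0%), while 2223 (14.9%) had an unadjusted p under 0.05. The 7 genes with UMIs in both tumors were between -3.70 (Mylk) and -7.00 (Myh11) on the log2 scale, and the fitted sizes rest on both tumors at 0 for Oxtr and on MT2 at 0 for Actg2. Adjusted p ranged from 0.307 to 0.481 over the 9 genes in edgeR, and 7 had an unadjusted p under 0.05, the smallest being 0.00054 for Tagln. DESeq2 with the same block called 1368 genes, 7 of the 9 among them as lower.

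Within the tumor clusters the genes were low but not alike. Tpm2 reached 49.4 CPM and Myl9 14.4 CPM in cluster 4 of MT1, which is led by Prl2c3, Cav1 and S100a4, and Tpm2 was 17.2 times Acta2 there. Myh11 in MT1 was gathered in cluster 3, led by Ccl20, at 36.7 CPM against 9.71 in cluster 11 (5 UMIs in 182 cells), 3.57 in cluster 1 and 1.57 in cluster 4. It comprised 217 UMIs in 180 of 2406 cells (7.48%), at most 6 in a cell, with 11, 27, 79, 71 and 29 UMIs in the 5 libraries. The ratio of Myh11 to Acta2 in that cluster was 6.78. Nde1, a gene that adjoins Myh11, stood at 29.2 CPM in cluster 3, 25.2 in cluster 11, 30.6 in cluster 4 and 13.6 in cluster 1. In MT2, Mylk stood at 10.3 CPM in cluster 0 and 8.89 CPM in the cycling cluster 2, while the other genes lay at or below 2.07 CPM. After thinning, 0.095% of MT1 tumor cells and none of the 9775 MT2 tumor cells had UMIs of 3 or more of the genes.

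Fibroblast-like cells moved the other way for part of the set. In them Acta2 stood at 28.3 and 15.44 CPM in MG1, 78.47 and 57.92 in MG2, 958.8, 1025, 453.1, 613.8 and 587 in MT1, and 157.2, 340.3 and 132.1 in MT2. The 4 groups did not overlap, and each tumor lay above its gland. Tpm2 stood at 64.32 and 30.89 CPM in MG1, 90.54 and 131.6 in MG2, 479.4, 524.8, 377.6, 313.7 and 431.6 in MT1, and 244.6, 180.9 and 184.3 in MT2. Its order was the same. Myl9 stood at 5.145 and 15.44 CPM in MG1, 12.07 and 0 in MG2, 213.1, 237.4, 113.3, 68.21 and 103.6 in MT1, and 32.03, 94.77 and 41.73 in MT2. Its tumor libraries lay above all gland libraries, while the tumors overlapped.

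Tagln in fibroblast-like cells stood at 23.15 and 0 CPM in MG1, 66.4 and 42.12 in MG2, 53.27, 437.3, 176.2, 191 and 69.06 in MT1, and 163.1, 99.07 and 73.02 in MT2. The spread among MT1 libraries exceeded that of the other groups. Myh11 stood at 182.7 and 15.44 CPM in MG1, 84.5 and 126.4 in MG2, 0, 37.48, 0, 0 and 17.26 in MT1, and 0, 8.615 and 0 in MT2. It was at 0 in 5 of the 8 tumor libraries, and the ratio of Myh11 to Acta2 was 0.0186 in MT1 and 0.0117 in MT2 against 3.0 in the glands.

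**Figure D5:**
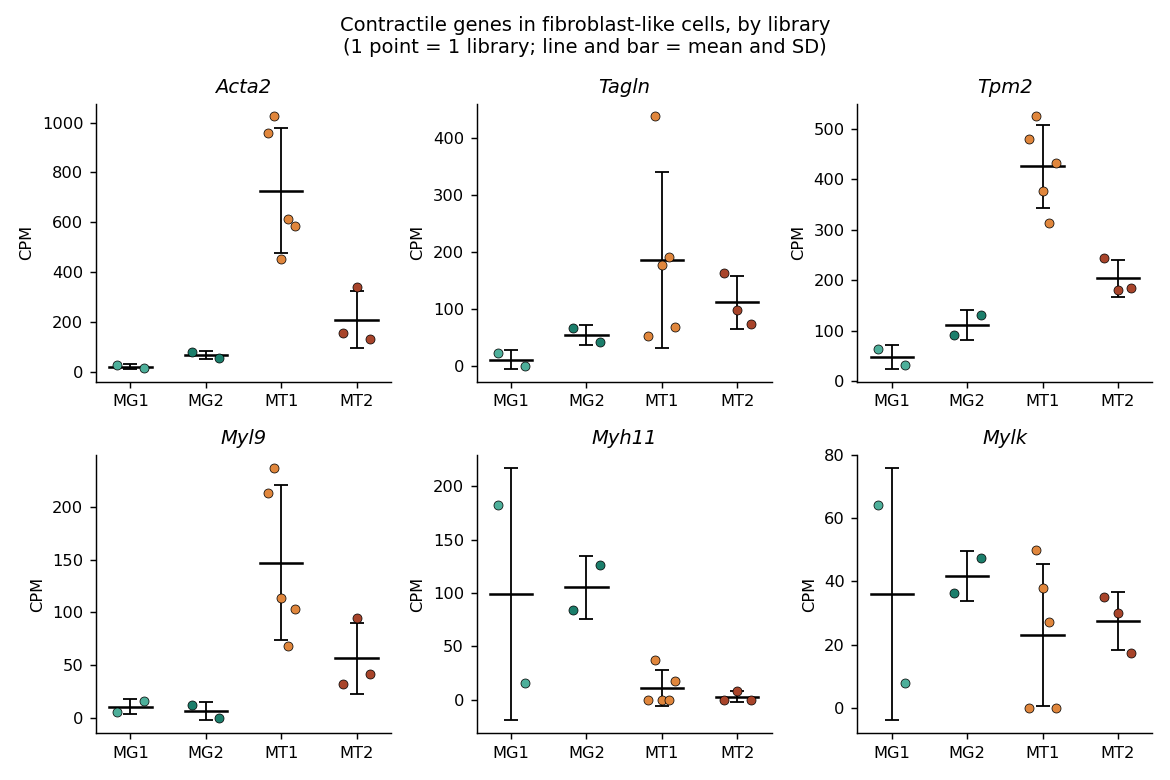
Level of Acta2, Tagln, Tpm2, Myl9, Myh11 and Mylk in fibroblast-like cells, in CPM, with 1 point per library, the mean as a line and the SD as a bar, for the groups MG1, MG2, MT1 and MT2. Acta2 lies between 453.1 and 1025 CPM in the 5 MT1 libraries and between 15.44 and 78.47 CPM in the 4 gland libraries, and Myh11 is at 0 in 5 of 8 tumor libraries.

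The class held partly different cells in gland and tumor. At resolution 1.0 it was split. The cluster led by Dpt, Prg4 and Apod held 125 cells of MG1, 125 of MG2, 32 of MT1 and 6 of MT2. The cluster led by Crabp1, Mmp13 and Col3a1 held 1, 11, 103 and 283 in the same order. That clustering also named a cluster of 823 MT2 cells fibroblast-like, on 3 fibroblast markers against 8 in each of these clusters. The class as used here held 289 MT2 cells, so most of the 823 came from outside it. Of the 10314 MT2 cells, 9775 lay in MT2 tumor clusters by the classes used here. Which cells moved was not traced. A change within 1 kind of cell and a change in which cells make up the class cannot be told apart in the sums below. Of the 5 genes tested in fibroblast-like sums, 4 were higher in MT1 than in MG1 (background 17.2% of 3883 genes) and Myh11 was lower (background 20.2%). Acta2 rose by 4.54 on the log2 scale (SE 0.499, adjusted p = 2.4e-07 in edgeR), Tagln by 3.37 (SE 0.681), Tpm2 by 2.70 (SE 0.378) and Myl9 by 3.75 (SE 0.759). Without MG1 replicate 1 the fitted value for Tagln was 7.899, since the other MG1 library is at 0. Myh11 changed by -3.33, and without MG1 replicate 1 by -0.516 with no call. In mouse 2, Acta2 (1.44, SE 0.452, adjusted p = 0.023 in edgeR) and Myl9 (2.955, SE 0.921) were higher in MT2 than in MG2 (background 8.94%) and Myh11 was lower (-5.25, background 12.6%), while Tagln (0.91) and Tpm2 (0.71) were not called. Acta2 lost this call in mouse 2 without MG2 replicate 1 (1.644), MG2 replicate 2 (1.234) or MT2 replicate 2 (1.002), and Myl9 without MG2 replicate 2 (1.952) or MT2 replicate 2 (2.458). Without MG2 replicate 1, Myl9 was at 6.163, fitted against an MG2 library at 0. Myl9 also lost it in DESeq2 (3.06, adjusted p = 0.0547). With the highest doublet scores left out, Myh11 did not pass the filter in either mouse, and in mouse 2 Tpm2 was called higher (1.406) while Myl9 was not called (2.754, adjusted p = 0.0501 in edgeR). At the finer clustering, with 823 more MT2 cells in the class, Acta2 in mouse 2 was at -0.665 and Myl9 at 0.92, neither called, and Tpm2 was called lower (-1.5).

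The rise was larger in mouse 1 for 2 genes (background 3.12%), Acta2 by 3.10 (SE 0.694, adjusted p = 0.00744 in edgeR) and Tpm2 by 1.99 (SE 0.516, adjusted p = 0.0236), and both were higher in MT1 than in MT2 directly (1.72 and 0.99, background 6.85%). Both calls of the larger rise were lost without MG2 replicate 1 (2.883 and 2.23), and that of Tpm2 also without MG1 replicate 2 (1.674), MG2 replicate 2 (1.668) or MT2 replicate 3 (1.917). Both were also lost without the highest doublet scores (2.638 and 1.457), and that of Tpm2 with no low-count filter (1.772). In MT1 against MT2 directly, the call of Tpm2 was lost without MT1 replicate 2 (0.854), without MT2 replicate 3 (0.914) and with no low-count filter (0.775). They also rested on the unnamed Postn Cilp sub-cluster. Its 62 MT1 cells held Acta2 at 1200 CPM, Tpm2 at 704, Tagln at 416 and Myl9 at 230, and the other 73 MT1 fibroblast-like cells held Acta2 at 282, Tpm2 at 182, Tagln at 58.8 and Myl9 at 64.6. Without it, Acta2 (2.94) and Tpm2 (1.41) were still higher in MT1 than in MG1, Tagln (1.60) and Myl9 (2.54) were not called, and neither Acta2 (1.5) nor Tpm2 (0.703) was called in the difference between the mice. In MT1 against MT2 without the sub-cluster, Acta2 was at 0.085 and Tpm2 at -0.334, and neither was called.

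Markers of other classes were summed beside these values. The 10 mural markers summed to 15.4 to 79.8 CPM in fibroblast-like cells of MG1, 139 to 184 in MG2, 218 to 380 in MT1 and 140 to 177 in MT2. The 8 basal markers summed to 425 to 491 CPM in MG1, 869 to 1530 in MG2, 426 to 2670 in MT1 and 340 to 387 in MT2. The 8 luminal secretory markers summed to 1020 to 1340 CPM in MG1, 985 to 1450 in MG2, 1820 to 3300 in MT1 and 8.62 to 34.8 in MT2, so that they were above the gland in mouse 1 and below it in mouse 2 with no overlap. The 9 general epithelial markers summed to 1580 to 2450 CPM in MG1, 990 to 1620 in MG2, 1840 to 3010 in MT1 and 163 to 422 in MT2. The 8 fibroblast markers themselves summed to 14100 to 14200 CPM in MG1, 21500 to 27900 in MG2, 28000 to 35000 in MT1 and 24700 to 41800 in MT2, with no overlap in mouse 1. The part of all these in the levels of Acta2, Tpm2, Tagln and Myl9 was not tested. Stromal cells with UMIs of 3 or more mural markers were few: 5 cells of MT1 held Acta2 at 1410 CPM with no Myh11, 2 cells of MT2 held 20 Acta2 and 2 Myh11 UMIs, and 2 cells of MG2 held 3 Acta2 and 1 Myh11 UMIs.

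Related genes were counted from 3 lists. In epithelial and tumor cells, 19 of the smooth muscle structural and cytoskeletal genes were tested, of which 5 were higher and 9 lower in MT1 than in MG1, and 7 higher and 9 lower in MT2 than in MG2; over all genes 32.2% and 32.7% were higher and 27.1% and 34.2% lower. Lmod1, a leiomodin that seeds actin filaments, changed by -4.00 and -3.87 (log2) in mouse 1 and mouse 2, and Synm, an intermediate filament protein, by -2.17 and -4.92. Itga8, an integrin subunit, fell by 1.07 and 8.02, and Pdlim3, a PDZ and LIM protein, fell by 2.01 in mouse 1, while its MG2 mean of 24.4 CPM stood against 0 CPM in MT2. Of 17 genes of contraction control, 3 were higher and 7 lower in mouse 1, and 4 higher and 9 lower in mouse 2. Plcb1, a phospholipase that acts in calcium signalling, fell by 1.83 and 2.96, Srf, the serum response factor itself, by 2.75 and 1.06, and the calcium channel Itpr1 by 1.31 and 1.90. Of the 12 non-muscle counterparts, 8 were higher, 2 lower and 2 not called in each mouse, and no test between the lists was made. The calponin Cnn2 rose by 1.83 and 1.82, Tagln2 by 1.51 and 1.93, the light chain Myl12a by 1.43 and 1.43, and the tropomyosin Tpm4 by 1.23 and 1.37.

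In fibroblast-like cells, 7 of 9 structural genes were higher in MT1 than in MG1 and 2 in MT2 than in MG2, with none lower; over all genes 17.2% and 8.94% were higher and 20.2% and 12.6% lower. Cryab, a small heat shock protein, rose by 2.48 and 1.48, and Tpm1 by 2.27 and 0.90. Of 12 control genes, 2 were higher and 4 lower in mouse 1, and 1 higher and 3 lower in mouse 2. Of the 12 non-muscle counterparts, 8 were higher and 1 lower in mouse 1, and 5 higher and 1 lower in mouse 2, with Cnn2 at 3.52 and 2.02 and Myl12a at 2.23 and 1.35. In basal-like cells none of the 15 structural, 12 control and 12 non-muscle genes tested was called between the glands. That fit called 1 of 3661 genes (0.0273%), so the absence of calls is nothing particular to these lists.

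Likeness between genes was measured over 70 sums of class by library. Pearson correlation of log2(CPM + 10) was 0.898 between Acta2 and Tagln, 0.881 between Acta2 and Tpm2 and 0.847 between Acta2 and Myl9, but 0.528 between Acta2 and Myh11. Among other genes of 20 CPM or more, Myh11 was most like Krt5 (0.863), Id4 (0.825) and Dmd (0.814). Krt5 also led for Mylk among the naming markers (0.83, behind Luzp1 at 0.841), for Cnn1 (0.851) and for Oxtr (0.915). Cxcl14 led for Acta2 (0.859), Tagln (0.858) and Tpm2 (0.865), followed by Plxdc2 (0.827), Scn7a (0.791) and Cacna2d1 (0.831). Myl9 was most like Cacna2d1 (0.787), and Actg2, the sparsest beside Oxtr, most like Dmd (0.548). Sums of 1 library share depth and free RNA and sums of 1 class share cells, so these values are descriptions with no test.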

How the data were processed

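The deposited file held UMI counts per gene and cell. The authors made these counts from dropseq libraries with Drop-seq tools, aligning reads with STAR to GRCm38.p6, and deposited cells with 800 or more detected genes as the table shows. Cells were tied to libraries by their column names. Counts were normalized per cell on a log scale, and cells were clustered in scanpy 1.11.5 (3000 variable genes without the 9 genes, 30 components, 20 neighbours, Leiden resolution 0.6). Cells of stromal clusters were clustered again at resolution 1.0. Naming a cluster took at least 3 class markers whose log2 fold against all remaining cells reached 1 (10 CPM added to both), and the general epithelial list did not compete with the luminal lists. A cluster whose leading genes went against the name stayed unnamed. Of the 8 hormone-sensing markers 7 were in the table. Since the doublet caller flagged just 44 cells (0.208%) it was judged to have failed, and leaving out the highest 5% of its scores served as an alternative.

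Counts were summed per library and class (10 or more cells) and tested in edgeR 4.0.16 (R 4.3.3; TMM, filterByExpr, quasi-likelihood F test, Benjamini-Hochberg over all genes tested, threshold 0.05), with all groups in 1 fit and SE taken as the absolute log2 change over the root of F. DESeq2 1.42.0, RLE factors, no low-count filter, other clusterings, left-out libraries and left-out cells were the alternatives. Gland and tumor of 1 mouse were paired from the mouse identity in the labels; library numbers follow accession order and pair nothing. Gene positions are from GENCODE on GRCm38 and promoters from RefSeq. All 9 genes are named in every comparison, with up to 4 genes per related list (the largest mean change among those called in both mice) and the 3 most alike genes per gene; 1 gene that the rule names is not reported here. The 9 genes and all lists were chosen with earlier results of these data known. Intervals are exact at 95% and cover counting error only.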

Additional observations from a re-analysis of the deposited data

Results flagged for a closer look

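In the 5 MT1 libraries, replicate 2 stood apart at 33.0 CPM for Acta2 and 14.6 CPM for Tagln over all cells, and at 75.0 CPM for Actg2 in fibroblast-like cells (gap over range above Dixon's 0.71). Of 27 combinations of gene and cell set, 3 were so marked. Those of Oxtr could not be, since it was at 0 in every MT1 library. Chance marks about 1 in 20 of separate sets, but these sets share cells.

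The change from gland to tumor differed between the mice by a test of the difference in log2 fold change (mouse 1 minus mouse 2). Over all cells this concerned Acta2 (2.07), Myh11 (5.66), Mylk (-1.93), Tpm2 (2.12), Myl9 (1.55) and Actg2 (5.33, a fitted value against MT2 libraries at 0). With stromal cells left out it concerned Acta2 (1.8), Myh11 (5.8), Mylk (-2.52), Cnn1 (-2.33), Tpm2 (4.2) and Myl9 (3.25). In fibroblast-like cells it concerned Acta2 (3.1) and Tpm2 (1.99).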

How the results depend on the processing

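Of 1567 values of single genes under an alternative, 1488 kept their direction and side of the threshold, 28 lost a call, 21 gained a call and 30 changed sign. The cause was not tested. Part of these values leave out a library of a group outside the contrast, which enters only the shared fit. The tally therefore does not measure how stable each contrast is. With the animal as replicate, DESeq2 called 7 of the 9 genes lower (1368 of all genes) and edgeR called 0, and edgeR with no replicate block, that is without the pairing by mouse, called 0 of all genes as well. RLE factors and DESeq2 moved the median log2 change of all genes in MT1 minus MG1 by -0.129 and -0.134 over all cells and by -0.121 and -0.127 with stromal cells left out, and moved the median difference between the mice by -0.135 and -0.139, and by -0.145 and -0.15. The left-out Postn Cilp sub-cluster and a resolution of 1.0 without a cluster of MT2 cells alone were chosen after seeing the data.

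The difference between the mice for Tagln over all cells was -0.13 with RLE factors, -0.055 in DESeq2 and -0.097 without high doublet scores, and with 1 library left out ranged from -0.685 (MT1 replicate 2) to 0.42 (MT2 replicate 1). Cnn1 in MT1 minus MT2 was 0.184 without high doublet scores and ranged from -0.165 to 0.209. Actg2 in MT1 minus MG1 was -1.371 without MG1 replicate 2 and 6.703 without MG1 replicate 1. With stromal cells left out the difference for Tagln ranged from -0.383 to 0.662. Genes losing more in mouse 1 numbered 1 to 2 over all cells and 1 to 2 with stromal cells left out.

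In fibroblast-like cells, without high doublet scores 0 genes were lower in either mouse and 0 differed between the mice. Without the Postn Cilp sub-cluster 2 genes were higher in mouse 1, 0 differed between the mice and 0 between the tumors, with Myl9 at -0.42 in the difference and Tagln and Tpm2 at -0.96 and -0.334 in MT1 minus MT2. In MT2 minus MG2, DESeq2 called 1 gene higher. At resolution 1.0 the class took in a further cluster of 823 MT2 cells. With it, 0 genes were higher and 2 lower in MT2 minus MG2 (Tpm2, at -1.5, and Myh11). Acta2 and Tagln were at -0.665 and -1.297 there with no call, and 4 genes were higher in MT1 than in MT2. With no low-count filter 1 gene differed between the mice and 1 between the tumors. Without the MT2 cluster at resolution 1.0, 2 were higher and 1 lower in mouse 2. With 1 library left out, 0 to 1 genes were lower in mouse 1, 0 to 2 higher in mouse 2, 0 to 3 higher in the difference and 1 to 3 higher in MT1 than in MT2, and Myl9 in the difference was -2.433 without MG2 replicate 1 and 1.778 without MG2 replicate 2. Among all genes, the 1454 calls in mouse 1 became 883 without the Postn Cilp sub-cluster. The 836 calls in mouse 2 became 1821 at resolution 1.0, 430 without MG2 replicate 1 and 392 without MG2 replicate 2. The 162 calls of the difference became 685 at resolution 1.0, 334 without MG1 replicate 1, 69 and 78 without MG2 replicate 1 and 2, 91 without high doublet scores and 100 without the sub-cluster. The 461 calls between the tumors became 1455 at resolution 1.0, and 297 and 296 without MT2 replicate 1 and 3.

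In basal-like cells Myh11 was 0.008 with no filter and 0.029 without high doublet scores. Without MG1 replicate 2, 1 gene was higher and 3 lower in MG2 than in MG1 (Cnn1 -1.437, Mylk -0.844 and Myl9 -1.02), with Myh11 at -0.492 and not called, and without MG1 replicate 1, 0 were higher and 0 lower (Cnn1 0.154, Myh11 0.62). The 1 call among all genes became 277 and 341 without those libraries. Without thinning, 85.4% of gland basal-like cells had 3 or more of the genes. Depth limits Oxtr and Actg2, whose levels rest on few UMIs.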
